A study of Mus musculus with 13 samples.

Results

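Oligodendrocyte precursor cells (OPCs) with a conditional knockout (cKO) of Eed were compared with control OPCs by RNA sequencing, across all 13549 genes of the deposited count table. The samples were chosen by their titles: 3 Eed cKO and 2 control OPC libraries, 5 of the 13 samples of the series and 5 of its 9 RNA-seq libraries. The cells were cultured from the brain of C57BL/6 mice in a growth medium with PDGF and NT-3, which keep OPCs dividing. Control replicate 1 and cKO replicates 1 and 2 (control 1, cKO 1 and cKO 2 below) came from postnatal day 7, and control replicate 2 and cKO replicate 3 (control 2 and cKO 3) from postnatal day 6. A further 2 control and 2 Eed cKO libraries of day 6 brain, held for 2 days in medium with thyroid hormone T3 and without PDGF, served as a second stage and are called immature oligodendrocytes (iOLs). The ChIP-seq samples are not used here. The labels give neither the Cre driver nor the deleted exons, and the genotype entry reads the same for control and cKO samples. Nothing in them says whether libraries came from separate animals or cultures, so p-values reflect only how these samples vary, which may be technical.

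Eed belongs to Polycomb repressive complex 2 (PRC2), whose Ezh1 or Ezh2 subunit methylates histone H3 at lysine 27. Eed binds that mark and is needed for the activity and stability of the complex. The mark is read by a second complex, PRC1, and is found at CpG-rich promoters of silent developmental genes, among them Hox, forkhead, T-box and other homeobox factors and the cell-cycle inhibitors of the Cdkn2a locus. OPCs are dividing, PDGF receptor alpha-positive cells that give rise to the myelin-forming oligodendrocytes.

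The promoters of the 3 increased and 2 decreased genes with the smallest p-values among those with a promoter record are shown first, so that their CpG content can be read beside the expression values below. Each run is the 250 bases before a transcription start recorded in RefSeq on GRCm38.p6 (mm10), 5′ to 3′ on the strand of the gene, with every CG dinucleotide in capitals.
Tmem132c: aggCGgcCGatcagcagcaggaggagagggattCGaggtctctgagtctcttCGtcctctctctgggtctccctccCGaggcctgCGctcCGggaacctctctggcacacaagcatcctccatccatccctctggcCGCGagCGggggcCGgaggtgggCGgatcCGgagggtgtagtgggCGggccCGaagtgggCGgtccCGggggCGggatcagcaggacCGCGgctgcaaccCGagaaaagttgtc
Moxd1: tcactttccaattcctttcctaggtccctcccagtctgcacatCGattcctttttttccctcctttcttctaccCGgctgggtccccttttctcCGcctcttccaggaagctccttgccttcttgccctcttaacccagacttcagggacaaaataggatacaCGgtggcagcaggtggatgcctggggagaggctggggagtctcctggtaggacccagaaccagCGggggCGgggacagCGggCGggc
Cdkn2a: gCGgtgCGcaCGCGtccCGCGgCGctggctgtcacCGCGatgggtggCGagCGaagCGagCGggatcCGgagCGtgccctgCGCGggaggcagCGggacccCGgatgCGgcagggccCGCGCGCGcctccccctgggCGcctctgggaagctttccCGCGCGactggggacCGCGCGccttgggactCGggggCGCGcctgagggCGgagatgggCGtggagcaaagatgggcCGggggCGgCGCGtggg
Myo7a: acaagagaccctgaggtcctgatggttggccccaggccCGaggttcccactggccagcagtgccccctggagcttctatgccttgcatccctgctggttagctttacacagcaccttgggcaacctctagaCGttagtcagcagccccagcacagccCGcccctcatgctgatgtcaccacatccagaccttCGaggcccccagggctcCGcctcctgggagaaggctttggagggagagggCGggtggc
Dhrs7: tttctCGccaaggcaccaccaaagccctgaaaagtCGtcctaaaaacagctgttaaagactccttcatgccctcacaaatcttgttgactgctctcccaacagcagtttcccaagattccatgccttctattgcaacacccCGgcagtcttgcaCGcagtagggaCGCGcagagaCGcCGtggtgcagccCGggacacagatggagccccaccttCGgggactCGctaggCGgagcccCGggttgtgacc
The Tmem132c window (chr5:127241576-127241825, plus strand) held 21 CG, a number that 16.3% of all 32851 RefSeq windows of 250 bases reached, where the median window held 6. The Moxd1 window (chr10:24223267-24223516, plus strand) held 8. The Cdkn2a window (chr4:89294620-89294869, minus strand) held 40 CG and 78.4% G or C, and 1.31% of windows had as many CG. It is 1 of 2 windows of this gene in the table, and so is the Myo7a window (chr7:98119494-98119743, minus strand) of its gene, which held 6 and reaches into the gene span given below. The Dhrs7 window (chr12:72664829-72665078, minus strand) held 13. The decreased genes thus had windows at or above the median too. Records were matched for 73.7% of the increased genes, under the 80% needed to compare their CpG content as a set, and that comparison was not made.

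The 5 libraries held 17417529 to 19680398 counts. Levels are given as CPM, counts brought to a common library size with TMM factors, in the order control 1, control 2, cKO 1, cKO 2, cKO 3 unless stated. On log2 CPM, the first principal component of the 5 libraries held 53.7% of the variance and placed the controls at −40.27 and −31.75, cKO 1 and 2 at 31.85 and 31.77, and cKO 3 at 8.401. The second held 32.9% and separated day 7 from day 6. Control 1 stood apart: Lars2 was at 5380 CPM there against 142 to 341 CPM in the 4 other OPC libraries, and Mir6236 at 4456 against 51.0 to 156 CPM. Its summed level of 11 myelinating oligodendrocyte markers was 6690 CPM against 1090 to 2920 CPM elsewhere. The summed level of 11 astrocyte markers was 10400 and 8300 CPM in the day 6 libraries and 3380 to 3900 CPM in the day 7 libraries. The OPC markers were high throughout, at 16300 to 19900 CPM over 11 genes. Of the 12 microglia markers, 2 were measured, with a sum of 22.1 to 31.2 CPM, and the 1 measured red blood cell gene, Hbb-b1, was at 2877 CPM in control 1 and at 562 to 1044 CPM in the others. Summed pericyte and fibroblast markers (12 genes) lay between 1420 and 1820 CPM, ependymal markers (4) between 14.4 and 17.3 CPM, and Schwann and neural crest markers (9) between 419 and 725 CPM. In these bulk cultures, fewer cells of a type and less RNA per cell cannot be told apart.

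In Eed cKO OPCs, 399 genes were higher and 41 lower than in controls, at an adjusted p under 0.05 in edgeR's quasi-likelihood test. These were 2.94% and 0.303% of the genes tested, 3.25% in all. The increases had a median log2 fold change of 1.34 and ranged from 0.48 to 7.48, and 54 of them exceeded 8-fold. Most were not extreme: 124 were under 2-fold and 157 between 2-fold and 4-fold. The decreases had a median of −0.94, and 22 of the 41 were under 2-fold. In every one of the 440 called genes the 5 libraries did not overlap between the groups, against 16.9% of all genes fully separated upward and 17.4% downward. The fit held no term for postnatal day. With such a term, 848 genes were higher and 534 lower, the 399 and 41 among them. Calls below are those of the fit without it unless stated.

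The share of genes called higher was largest at low levels in control OPCs. Of 567 genes under 1 CPM in controls, 86 (15.2%) were called higher, with a median log2 fold change of 3.02. Of 2653 genes over 100 CPM, 21 (0.792%) were higher, with a median of 0.82. The share fell through each range between them, with 5.97% at 1 to 3 CPM, 4.72% at 3 to 10 CPM, 2.7% at 10 to 30 CPM and 1.61% at 30 to 100 CPM. The decreases showed no such order, with 12 of 41 above 100 CPM and 1 below 1 CPM. CPM is not scaled to gene length, so the ranges also reflect length. The deposited table holds genes with at least 10 counts in 4 or more of the 9 libraries. 32 genes had fewer than 10 counts in all 4 control libraries, and for these the cKO libraries alone carried the gene into the table. 20 of the 399 increases were among them, and 379 of the 13517 other genes (2.8%) were called higher. The share under 1 CPM was not recomputed without these 32 genes. The same control libraries set both the range and the fold, which favours increases at low control levels.

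**Figure D1:**
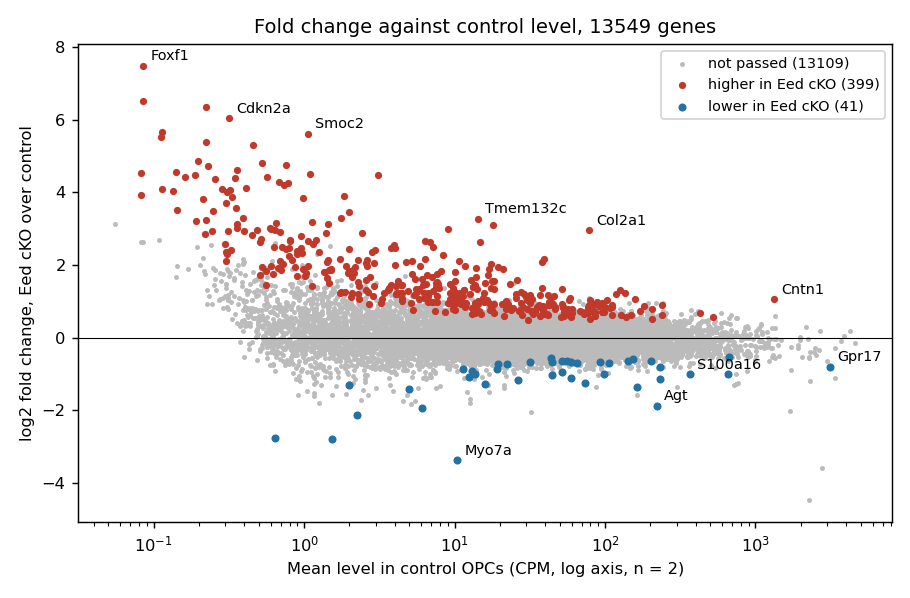
Log2 fold change of Eed cKO over control OPCs (vertical axis) against the mean level in the 2 control libraries in CPM (horizontal log axis), 1 point per gene. The 399 increases (red) reach the largest folds at the left, where control levels are low, and the 41 decreases (blue) lie mostly above 10 CPM.

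How far the calls rested on single libraries was measured by leaving out each in turn. All 399 increases and 41 decreases stayed called without cKO 3, and 398 and 40 without control 2. Without control 1, 176 increases and 6 decreases stayed called, without cKO 1, 161 and 3, and without cKO 2, 161 and 4. In all, 135 increases and 3 decreases (Myo7a, Dhrs7 and B230311B06Rik) were called without each of the 5 libraries. Total calls moved the other way without the day 6 libraries, to 1862 higher and 2073 lower without control 2 and to 1334 and 810 without cKO 3.

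Eed itself was at 21.7 and 16.8 CPM in the controls and at 13.3, 11.8 and 12.5 CPM in the cKO libraries. The groups did not overlap, but the log2 fold change of −0.62 ± 0.17 (SE) did not pass (edgeR adjusted p = 0.0847). A count over the whole gene does not measure the deleted part. Suz12, the subunit that holds the complex together, had a log2 fold change of 0.22 ± 0.14, and the catalytic subunits Ezh1 and Ezh2 had 0.10 ± 0.14 and 0.03 ± 0.12. None of 13 measured PRC2 subunits was called in either direction in the edgeR fit without a day term. At an unadjusted p under 0.05, 2 were higher and 1 lower, and DESeq2 called 0 and 1. With postnatal day as a term, edgeR called 1 higher and 1 lower, and without cKO 3 it called 2 higher and 0 lower. Among 27 PRC1 subunits, 3 were higher (11.1%, against 2.94% of all genes) and none lower. Bmi1, a PRC1 ring-finger partner that represses the Cdkn2a locus, was at 57.1 and 58.7 CPM in controls and at 126, 132 and 100 CPM in cKO libraries (log2 fold change 1.04 ± 0.13, edgeR adjusted p = 0.00258). Auts2 and Bcor, subunits of variant PRC1 complexes, had log2 fold changes of 0.87 and 0.99. The calls of Auts2 and Bcor, but not that of Bmi1, were lost without at least 1 of control 1, cKO 1 and cKO 2, at adjusted p of up to 0.137. None of 18 measured histone methylation and acetylation enzymes, such as the H3K27 demethylases Kdm6a and Kdm6b, was called by edgeR, with 5 higher at an unadjusted p under 0.05 and 1 called higher by DESeq2.

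Some cell-cycle inhibitors and p53 target genes rose. Among those called, the inhibitor Cdkn2a and 1 p53 target were in the table only through cKO libraries, which favoured their being called. Cdkn2a, which encodes p16INK4a and ARF (chromosome 4, 89274473 to 89294619), had 11 counts in both controls together and 1158 in the cKO libraries, a ratio of 67.3 per unit of depth (exact 95% interval 37.5 to 135, counting error only). Its level was 0.527 and 0.105 CPM in the controls against 22, 20.5 and 19.3 CPM. Cdkn2b, which encodes p15INK4b, lies 11.7 kb away and rose from 0.879 and 0.421 CPM to 5.64, 7.16 and 4.64 CPM. Cdkn1a, which encodes the p53-induced inhibitor p21 (chromosome 17, 29090979 to 29100722), was at 7.62 and 5.05 CPM in controls and at 40.9, 38.7 and 39.3 CPM in cKO libraries. These 3 were the called members of 7 measured inhibitors (42.9%, against 2.94% of all genes), and all 3 stayed called without each library. For Cdkn2a, its way into the table favoured that as well.

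Of 28 measured p53 target genes, 11 were higher (39.3%, against 2.94% of all genes) and none lower. Their median log2 fold change was 0.66, against −0.02 over all genes. Pmaip1 (Noxa), a pro-apoptotic BH3-only gene, was at 1.29 and 0.895 CPM in controls and at 25, 32.2 and 17.0 CPM in cKO libraries. Eda2r, a TNF receptor family member, was at 5.74 and 7.9 CPM and rose to 42.9, 46.0 and 38.8 CPM. Ccng1, cyclin G1, was at 34 and 40.2 CPM and rose to 76.7, 86.7 and 87.1 CPM. The controls and cKO libraries were apart in each of these genes. Trp73, the p53 relative p73, had a log2 fold change of 4.01 ± 0.38, and Trp53inp1 had 1.26. Aen, Ano3, Polk, Psrc1 and Tnfrsf10b, with log2 fold changes of 0.79, 1.22, 0.97, 0.75 and 1.86, each lost its call without at least 1 of control 1, cKO 1 and cKO 2 (adjusted p from 0.0564 to 0.223), and 6 to 13 of the 28 were called across the 5 left-out fits. Mdm2, the p53 ubiquitin ligase and a classical p53 target, was at 60.7 and 50.7 CPM against 77.2, 78.0 and 56.0 CPM, overlapping between the groups (log2 fold change 0.34 ± 0.16, edgeR adjusted p = 0.209). None of 45 cell-cycle and DNA replication genes passed edgeR's test, with a median of −0.09, 2 higher and 6 lower at an unadjusted p under 0.05 and 2 called higher by DESeq2.

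Forkhead, T-box and other mesodermal transcription factors held the highest folds. Of 29 measured forkhead and T-box factors out of 60 written, 9 were higher (31.0%, against 2.94% of all genes) and none lower. Foxf1, a regulator of gut and lung mesenchyme (chromosome 8, 121084386 to 121088154), had 3 counts in the controls and 906 in the cKO libraries, a ratio of 193 (95% interval 65.9 to 939). It was at 0.117 and 0.0526 CPM in controls and at 16.6, 17.5 and 14.2 CPM in cKO libraries. Tbx18, with 3 and 464 counts, Tbx15, Tbx3, Foxd2, Foxa1, Foxc1, Foxd1 and Foxp1 were the other members called. 4 of the 9 were in the table only through cKO libraries, which favoured their being called. Of 29 measured GATA, Hand, Twist and like factors, 5 were higher (17.2%): Osr2, Tcf24, Ebf3, Ebf2 and Prdm8. Of the 5, 1 was in the table only through cKO libraries. Tcf24, a basic helix-loop-helix factor, was at 0.527 and 0.526 CPM in controls and at 17.1, 15.1 and 12.6 CPM in cKO libraries (log2 fold change 4.81 ± 0.28, edgeR adjusted p = 6.3e-05). Osr2 varied most among the cKO libraries here, with 21.8, 27.9 and 6.14 CPM against 0.234 and 0.211 CPM. Foxd2, Tbx3, Foxd1, Foxp1, Ebf2 and Prdm8 each lost its call without at least 1 of control 1, cKO 1 and cKO 2, at adjusted p from 0.064 to 0.186, and 6 to 14 forkhead and T-box factors were called over the 5 fits that each left out 1 library.

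Homeobox genes outside the Hox clusters rose in 22 of 69 measured members (31.9%, against 2.94% of all genes) and fell in 1. Of the 22, 2 were in the table only through cKO libraries. The increases ran from Meis2, a cofactor of Hox proteins, with a log2 fold change of 0.57, to Hmx1 with 5.66. Hlx, a factor of visceral mesenchyme, was at 0.293 and 0.421 CPM in controls and at 9.93, 7.75 and 9.08 CPM in cKO libraries. Zfhx4, a large zinc-finger homeodomain factor, was at 5.86 and 8.58 CPM and rose to 43.3, 45.1 and 34.3 CPM. Pou4f1, a sensory neuron factor, had a log2 fold change of 5.37. Nkx2-1, the ventral forebrain patterning factor, went the other way, from 6.8 and 5.37 CPM in controls to 1.84, 1.88 and 1.03 CPM in cKO libraries (log2 fold change −1.94 ± 0.32, edgeR adjusted p = 0.0133). Of the 10 measured Hox genes out of 39 written, 4 were higher and none lower, among them Hoxa5, Hoxb6 and Hoxb3 with log2 fold changes of 4.09, 3.23 and 1.78, and 3 of the 4 were in the table only through cKO libraries. Among 9 neurogenic basic helix-loop-helix factors, Neurod1, Neurod6 and Bhlhe22 were higher at 2.35, 1.45 and 0.77, while the median of the 9 was −0.29. None of 20 Sox and Zic factors passed edgeR's test, with 3 higher and 2 lower at an unadjusted p under 0.05 and 1 called higher by DESeq2. None of 30 oligodendrocyte lineage factors passed it either, with 8 and 3 at an unadjusted p under 0.05 and 2 and 1 called by DESeq2. Meis2, Hoxb3, Nkx2-1, Neurod6 and Bhlhe22 each lost its call without at least 1 of control 1, cKO 1 and cKO 2 (adjusted p from 0.0504 to 0.188), and 10 to 33 of the 69 homeobox genes were called higher over the 5 fits that each left out 1 library.

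Imprinted genes are expressed from 1 parental allele, and many of them regulate fetal growth. They rose in 11 of 41 measured members (26.8%, against 2.94% of all genes), and none fell. H19, a noncoding RNA of the Igf2 domain (chromosome 7, 142575530 to 142578146), was at 24.7 and 11.3 CPM in controls and at 161, 173 and 129 CPM in cKO libraries (log2 fold change 3.10 ± 0.35, edgeR adjusted p = 0.00163). Igf2, the fetal insulin-like growth factor, was at 0.0586 and 0.263 CPM and rose to 4.01, 4.63 and 2.48 CPM, from 6 counts to 208 (ratio 22.2, 95% interval 10 to 61.1). Zdbf2 was at 13.9 and 15.8 CPM and rose to 102, 108 and 64.6 CPM. The lowest cKO value of each of these lay above both controls, and that value came from cKO 3. Dlk1, a Notch-like protein of immature cells, had a log2 fold change of 2.58, Plagl1, a growth-restraining zinc-finger factor, 1.54 and Grb10, an insulin receptor adaptor, 1.19. Slc38a4, Magel2, Asb4, Peg3 and Mest were between 0.85 and 1.41. Outside the list, Igf2bp1, an RNA-binding protein of fetal tissue that binds Igf2 mRNA, rose from 0.996 and 0.526 CPM to 22.2, 23.4 and 15.1 CPM. Plag1, a zinc-finger factor known to activate Igf2, rose from 0.351 and 1.21 CPM to 16.9, 16.6 and 12.7 CPM. Igf2, Peg3, Asb4, Slc38a4, Grb10, Mest, Plagl1 and Magel2 each lost its call without at least 1 of control 1, cKO 1 and cKO 2, at adjusted p from 0.0504 to 0.182, and 3 to 18 of the 41 were called higher over the 5 fits that each left out 1 library.

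Receptor tyrosine kinases rose in 12 of 44 measured members (27.3%, against 2.94% of all genes), and none fell. Flt1 (VEGF receptor 1) had 9 counts in controls and 296 in cKO libraries, with levels of 0.351 and 0.158 CPM against 4.61, 5.98 and 5.16 CPM. Erbb3, the neuregulin receptor, was at 18.9 and 17.9 CPM and rose to 42.9, 52.0 and 44.5 CPM. Ephb1, an ephrin-B receptor, was at 103 and 93.0 CPM and rose to 155, 160 and 159 CPM, a small but separate change (log2 fold change 0.69 ± 0.10, edgeR adjusted p = 0.00587). Flt4 and Kdr, the other VEGF receptors, had log2 fold changes of 2.82 and 1.22, Epha7 had 1.28, and the insulin and insulin-like growth factor receptors Insr and Igf1r had 0.88 and 0.70. Flt1, Kdr and Ocln, a tight-junction gene, were 3 of the 4 measured endothelial markers of 11 written. The fourth, Vwf, was at 15.1 and 12.6 CPM in controls and at 9.93, 9.1 and 7.53 CPM in cKO libraries, and the summed level of the 4 was 17.1 and 15.8 CPM against 22.6, 21.2 and 18.7 CPM. The part of endothelial cells in these values was not tested. Of 41 growth factor ligands, Igf2, Wisp1, Clcf1, a cytokine of the IL-6 family, and Angpt2, the angiopoietin that antagonises Tie2, were higher. Npr3, the natriuretic peptide clearance receptor, had a log2 fold change of 4.39 ± 0.91. Kdr, Ocln, Igf1r, Insr, Clcf1, Wisp1 and Npr3 each lost its call without at least 1 of control 1, cKO 1 and cKO 2, at adjusted p from 0.0553 to 0.144, and 5 to 19 of the 44 receptors were called over the 5 fits that each left out 1 library.

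Among morphogen pathways, the share called higher was 14.3% for Hedgehog, 17.6% for retinoic acid and 12.1% for Wnt and Tcf/Lef genes. Over all genes it was 2.94%. Of 21 Hedgehog genes, the co-receptor Cdon and the secreted Scube3 and Scube1 were higher. Cdon was at 17.3 and 21.5 CPM in controls and at 79.2, 82.8 and 62.8 CPM in cKO libraries (log2 fold change 1.95 ± 0.22, edgeR adjusted p = 0.00168). Of 17 retinoic acid genes, Aldh1a2, an enzyme that makes retinoic acid, rose from 0.41 and 0.948 CPM to 13.2, 15.9 and 11.1 CPM, a log2 fold change of 4.27. Tgm2, a retinoic acid target, and the receptor Rara had 1.24 and 0.66. Of 58 Wnt and Tcf/Lef genes, 7 were higher and none lower. Lef1, a DNA-binding partner of beta-catenin, was at 2.34 and 2.53 CPM and rose to 17.1, 19.4 and 17.8 CPM. Sp8 and the ligand Wnt2b had log2 fold changes of 3.55 and 2.93, and the Groucho corepressor Tle2 had 0.88. Of 47 TGF-beta and BMP genes, Bmp5 and Fstl4 were higher, at 3.03 and 2.06, a share of 4.26%. Of these 2, 1 was in the table only through cKO libraries. Of 27 PDGF, FGF and ERK response genes, the early response factor Egr3 was higher, at 0.81. This was a share of 3.7%, near the 2.94% of all genes. Scube3, Scube1, Tgm2, Rara, Bmp5 and Egr3 each lost its call without at least 1 of control 1, cKO 1 and cKO 2 (adjusted p from 0.0518 to 0.189), and 6 to 23 of the 58 Wnt genes were called over the 5 fits that each left out 1 library.

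Matrix proteins rose in 13 of 90 measured members (14.4%, against 2.94% of all genes). They fell in 1, Efemp2, with a log2 fold change of −0.56. Fibrillar and cartilage collagens were among the increases. Col2a1, the main collagen of cartilage (chromosome 15, 97975602 to 98004724), was at 48.9 and 107 CPM in controls and at 658, 635 and 528 CPM in cKO libraries (log2 fold change 2.96 ± 0.38, edgeR adjusted p = 0.00316). Col9a1, which decorates type II collagen fibrils, was at 15.9 and 18 CPM and rose to 57.5, 69.6 and 60.1 CPM. Col27a1, another cartilage collagen, was at 40.1 and 38.8 CPM and rose to 186, 194 and 155 CPM. All 3 were apart between the groups. Col14a1, a fibril-associated collagen, rose from 4.04 and 2.11 CPM to 58.5, 78.6 and 66.9 CPM, and Smoc2, a secreted calcium-binding matrix protein, from 1.23 and 0.895 CPM to 50.6, 55.7 and 49.4 CPM. Outside the list, the tolloid protease Tll2 and the secreted C1qtnf1 had log2 fold changes of 4.13 and 4.21. Of 36 cadherins and protocadherins, 1 was higher, Cdh23 at 2.32, a share of 2.78% near the 2.94% of all genes. At an unadjusted p under 0.05, 6 were higher and 1 lower, and DESeq2 called 5 higher and 0 lower. Efemp2 lost its call without each of control 1, cKO 1 and cKO 2 (adjusted p from 0.0706 to 0.164), and 6 to 26 matrix genes were called higher over the 5 fits that each left out 1 library.

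Channel and transmitter genes rose in 10 of 93 and 7 of 63 measured members (10.8% and 11.1%, against 2.94% of all genes), and none fell. Piezo2, a mechanically gated channel, was at 4.74 and 5.74 CPM in controls and at 23.2, 24.9 and 20.4 CPM in cKO libraries. Cacna2d1, the alpha2-delta subunit of voltage-gated calcium channels, was at 20.3 and 21.6 CPM and rose to 85.6, 92.7 and 56.0 CPM. Kcns1, a modulatory potassium channel subunit, had a log2 fold change of 2.15. Gad2, which makes GABA, was at 4.1 and 3.84 CPM and rose to 25.9, 24.4 and 19.4 CPM. Slc32a1, the vesicular GABA transporter, was at 4.22 and 1.74 CPM and rose to 16.8, 16 and 14.6 CPM. Every cKO value of these 4 genes with levels lay above both controls. The receptors Chrnb2, Grm4 and Gria3 had log2 fold changes of 0.86, 1.14 and 0.80. Gad2 and Slc32a1 were also the 2 called of 14 neuron markers, whose summed level was 1150 and 1180 CPM in controls and 1890, 1940 and 1370 CPM in cKO libraries. The other 12 did not pass edgeR's test. Over the 14, the median log2 fold change was 0.56, and 7 were higher and 0 lower at an unadjusted p under 0.05. DESeq2 called 5 higher and 0 lower. The pan-neuronal Tubb3, 1 of the 12, was not higher, at 61.2 and 43.3 against 46.9, 44.6 and 38.1 CPM. The part of neurons in these values was not tested. Kcns1, Chrnb2, Grm4 and Gria3 each lost its call without at least 1 of control 1, cKO 1 and cKO 2, at adjusted p from 0.0526 to 0.131, and 3 to 27 channels and 2 to 13 transmitter genes were called over the 5 fits that each left out 1 library.

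Axon guidance ligands and receptors were higher in 9 of 60 measured members, and none was lower. The 4 with the smallest p-values were the semaphorin receptor Plxnd1, the BMP co-receptor Rgmb, the ligand Sema3f and the ephrin Efna5, with log2 fold changes of 0.92, 1.16, 2.14 and 1.96. Plxnd1 was at 20.7 and 24.6 CPM in controls and at 47.5, 40.9 and 40 CPM in cKO libraries. Each of these calls was lost without at least 1 of control 1, cKO 1 and cKO 2, at adjusted p of up to 0.103, and 1 to 22 of the 60 were called over the 5 fits that each left out 1 library.

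Beyond the highest folds, some increases were smaller but closely repeated between libraries. Tmem132c, a transmembrane protein (chromosome 5, 127241826 to 127565790), was at 14 and 14.7 CPM in controls and at 130, 160 and 127 CPM in cKO libraries (log2 fold change 3.28 ± 0.15, edgeR adjusted p = 4.1e-05). Moxd1, a monooxygenase-like protein (chromosome 10, 24223517 to 24302783), was at 40.6 and 35.8 CPM and rose to 159, 169 and 153 CPM (log2 fold change 2.07 ± 0.12, edgeR adjusted p = 6.3e-05). Tmem2, a cell-surface hyaluronidase, was at 16.3 and 19.2 CPM and rose to 51.9, 53.4 and 52.2 CPM. The cKO libraries of these genes differed among themselves far less than they differed from the controls, and the same was seen in 5330417C22Rik, with a log2 fold change of 3.84 ± 0.27. Among increases with the highest counts, Cntn1, contactin 1, was at 1231 and 1432 CPM and rose to 2957, 3158 and 2205 CPM (log2 fold change 1.06 ± 0.19, edgeR adjusted p = 0.0178). Sez6l, Abhd2, Zfp704 and Farp1 had log2 fold changes of 0.57, 0.67, 0.91 and 0.63, all under 2-fold. Cntn1, Sez6l, Abhd2, Zfp704 and Farp1 each lost its call without at least 1 of control 1, cKO 1 and cKO 2 (adjusted p from 0.0624 to 0.181).

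**Figure D2:**
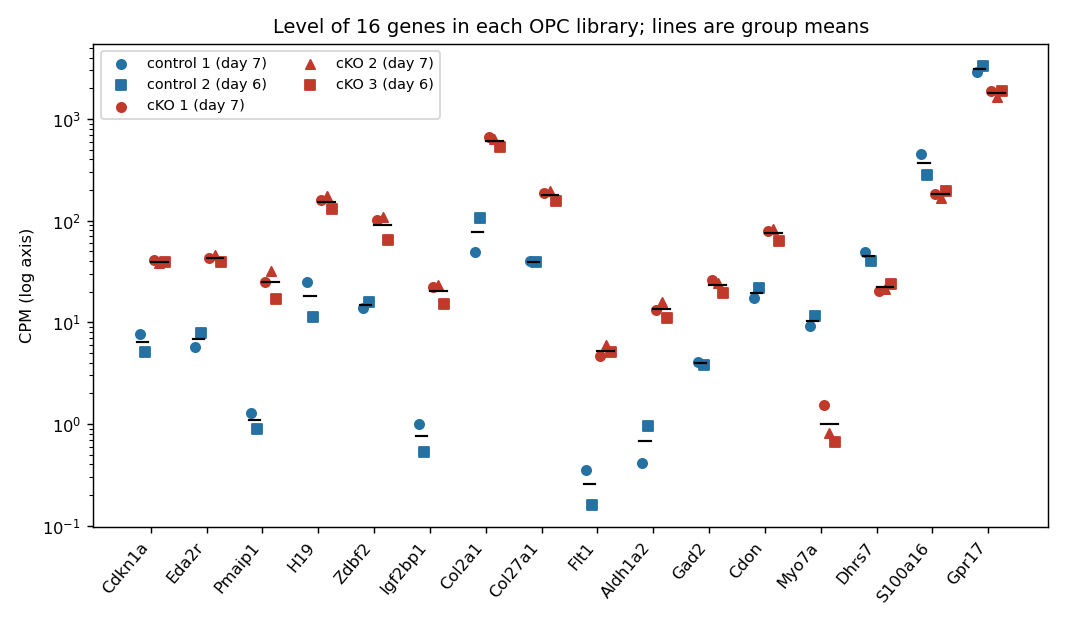
Level in CPM (log axis) of 16 genes in each of the 5 OPC libraries, controls in blue and Eed cKO in red, with squares for postnatal day 6 and other symbols for day 7. Short lines are group means (n = 2 and n = 3), and the 2 colours do not overlap in any of the 16 genes.

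Of the 41 decreases, Myo7a, Dhrs7 and B230311B06Rik held in every fit that left out a library. The last of these, an uncharacterised transcript named here for that reason, was at 1.46 and 1.58 CPM in controls and at 0.326, 0.162 and 0.155 CPM in cKO libraries. Myo7a, an unconventional myosin of sensory hair cells (chromosome 7, 98051054 to 98119522), was at 9.26 and 11.5 CPM in controls and at 1.52, 0.808 and 0.671 CPM in cKO libraries (log2 fold change −3.38 ± 0.33, edgeR adjusted p = 0.00068). Dhrs7, a short-chain dehydrogenase (chromosome 12, 72650353 to 72664828), was at 48.9 and 40.2 CPM against 20.5, 21.4 and 23.9 CPM (log2 fold change −1.02 ± 0.14, edgeR adjusted p = 0.00438). Of 48 measured genes of committed and newly formed oligodendrocytes, 5 fell, beside 0.303% of all genes, and 1, Tmem2, rose. Their median log2 fold change was −0.42. With postnatal day as a term, edgeR called 18 of the 48 lower and 1 higher. Gpr17, a receptor of committed precursors, was at 2922 and 3316 CPM in controls and at 1866, 1625 and 1866 CPM in cKO libraries. Cnp, a myelin-associated enzyme, was at 815 and 501 CPM against 302, 370 and 307 CPM. Lims2, which overlaps Gpr17 in the genome so that unstranded reads could be shared, Neu4, a sialidase, and Gamt, which makes creatine, had log2 fold changes of −0.65, −1.25 and −1.27. Gamt was the 1 called member of 30 genes of creatine and one-carbon metabolism.

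Among 11 measured S100 genes, small calcium-binding proteins, S100a16, S100a1 and S100a13 were lower, beside 0.303% of all genes, and none was higher. Their median log2 fold change was −0.84. S100a16 was at 451 and 281 CPM in controls and at 181, 167 and 195 CPM in cKO libraries (log2 fold change −1.02 ± 0.20, edgeR adjusted p = 0.0298). S100a1 and S100a13 overlap in the genome and may share reads. Gm2a, a lysosomal glycolipid cofactor, Rnd2, an atypical small GTPase, and Mir9-3hg, a microRNA host transcript, had −0.54, −0.81 and −0.65. Gadd45g, a growth-arrest gene, had −1.01, and Agt, angiotensinogen and the 1 called astrocyte marker of 11, had −1.88. The sum of the astrocyte markers was 3900 and 10400 CPM in the controls and 3380, 3570 and 8300 CPM in the cKO libraries, and its part in Agt was not tested. Apart from Myo7a and Dhrs7, the 13 decreased genes named here and in the preceding sentences on oligodendrocyte genes each lost its call without at least 1 of control 1, cKO 1 and cKO 2, at adjusted p from 0.0517 to 0.21. That group comprised Gpr17, Cnp, Lims2, Neu4, Gamt, S100a16, S100a1, S100a13, Gm2a, Rnd2, Mir9-3hg, Agt and Gadd45g. Between 0 and 17 of the 48 oligodendrocyte genes and between 0 and 6 S100 genes were called lower over the 5 fits that each left out 1 library. Control 1, with its higher sum of myelinating oligodendrocyte markers (6690 against 2270 CPM in control 2), was the higher control in 30 of the 41 decreases (73.2%), beside 52.2% of all genes tested, and its part in them was not tested.

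Of 11 OPC markers, edgeR called Gpr17 alone, while 4 were lower and 0 higher at an unadjusted p under 0.05. DESeq2 called 3 lower and 0 higher, and so did edgeR with postnatal day as a term. Pdgfra, the PDGF receptor, was at 3297 and 4430 CPM in controls and at 3935, 4290 and 3830 CPM in cKO libraries (log2 fold change 0.06 ± 0.20, edgeR adjusted p = 0.873). Cspg4, which encodes NG2, had 0.26 ± 0.18, and the lineage factors Olig1, Olig2 and Sox10 had −0.28 ± 0.18, −0.40 ± 0.14 and −0.13 ± 0.15. Olig2 was the one of these whose groups did not overlap, at 531 and 529 CPM against 410, 350 and 442 CPM (edgeR adjusted p = 0.133). The sign of Pdgfra and Sox10 turned without control 1, to −0.14 and 0.01. Of the other markers, Erbb3 was the 1 called of 9 Schwann and neural crest genes and Dnah11, a ciliary dynein, the 1 called of 4 ependymal genes, at 0.95, a call lost without each of control 1, cKO 1 and cKO 2 (edgeR adjusted p from 0.141 to 0.192). None of the measured microglia, pericyte and fibroblast, or red blood cell markers was called by edgeR or DESeq2, with 1 microglia marker lower and 1 pericyte or fibroblast marker higher at an unadjusted p under 0.05. None of 12 measured germline genes was called by edgeR or DESeq2, with a median of 0.26 and 2 higher at an unadjusted p under 0.05.

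Ribosomal and respiratory genes were high in control 1. None of 61 cytosolic ribosomal protein genes and none of 72 nuclear oxidative phosphorylation genes passed edgeR's test, while 18 and 56 were lower and 0 higher at an unadjusted p under 0.05. DESeq2 called 0 and 8 of them lower, and edgeR with postnatal day as a term called 0 and 14 lower. Their medians were −0.43 and −0.51, made up of −0.80 and −0.89 within day 7 and of 0.10 and −0.00 within day 6. Over the same genes, control 1 stood above control 2 by a median of 0.82 and 0.75 on the log2 scale. The summed ribosomal protein level was 31100 CPM in control 1 and 17700 to 19100 CPM in the 4 other libraries.

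Over the 32 gene groups, 19 held increases and no decrease by edgeR. In any 1 of these groups, at most 5 members were lower at an unadjusted p under 0.05, at most 1 was called lower by DESeq2, and at most 7 were called lower in a fit without 1 library.

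**Figure D3:**
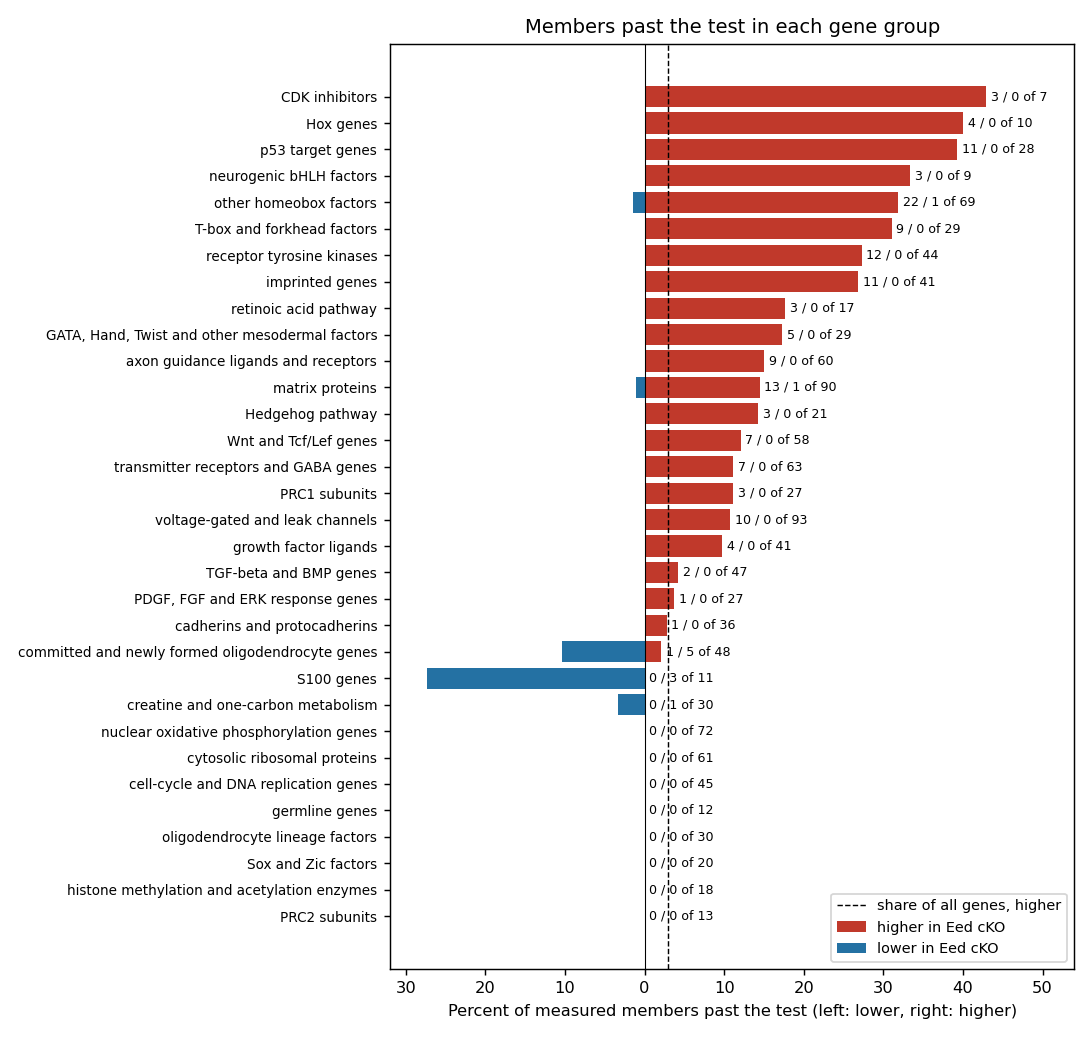
Percent of the measured members of each of 32 gene groups that passed the test, higher to the right and lower to the left, with the counts higher, lower and measured beside each bar. The dashed line is the 2.94% of all genes that were higher, and cell-cycle inhibitors, Hox genes and p53 targets reach furthest to its right. Of these calls, 1 of 3 inhibitors, 3 of 4 Hox genes and 1 of 11 p53 targets were in the table only through cKO libraries. The line takes no account of control level: of genes under 1 CPM in controls, 15.2% were higher. The 10 measured Hox genes summed to 13.4 and 7.37 CPM in the controls. The groups were chosen with earlier results of these data known, and no excess over the line was tested.

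The comparison was also made within each postnatal day. On day 7 it set 2 cKO libraries against 1 control, and on day 6 it set 1 against 1, so the spread came from groups with replicates and the lone libraries were assumed to vary like them. Within day 7, 3386 genes (25%) were higher and 3386 (25%) lower by edgeR, and within day 6, 251 (1.85%) and 32 (0.236%). All 399 increases and all 41 decreases had the same sign on both days, beside 8223 of all 13549 genes tested. The pooled call used these same libraries, and no called gene overlapped between the groups. That lack of overlap fixed the agreement in sign in advance. Of the 399, 398 were called within day 7 and 203 within day 6, and of the 41, 40 and 6. Differences were larger in size on day 7 in 294 of 399 increases (73.7%) and 34 of 41 decreases (82.9%), beside 77.1% of all 13549 genes tested, with a median log2 fold change of 1.47 against 1.14 and of −1.14 against −0.63. cKO 3 was the lowest cKO library in 282 of the 399 increases (70.7%), against 43.4% of all genes, and the highest in 23 of the 41 decreases.

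The difference between the days was tested itself, and 52 of the 399 increases (13%) and 6 of the 41 decreases (14.6%) passed, below the 20.4% of all genes that did. Cntn1 had a log2 fold change of 1.31 on day 7 and 0.62 on day 6, Zdbf2 had 2.92 and 2.03, and Zfp704 had 1.30 and 0.49. Plag1 had 5.55 and 3.39. S100a16, S100a1 and S100a13 fell by 1.37, 1.54 and 1.81 on day 7 and by 0.53, 0.59 and 0.72 on day 6. The widest gaps belonged to genes with few control counts, Ebf2, Tmem30b, Trp53cor1, Npr3, Tbx3 and Igf2, and of these Ebf2 passed the test of the difference, at 4.30 on day 7 and 1.47 on day 6 (edgeR adjusted p = 0.0364). In the others the difference did not pass: Npr3 had 3.53 on day 7 and 6.78 on day 6, and Igf2 had 6.05 and 3.20. Control 1 is the lone control of day 7, and differences between the days cannot be told apart from what is particular to the control libraries. Of the genes named in this paragraph, Ebf2, Trp53cor1, Npr3, Tbx3, Igf2, Zfp704, Cntn1 and the 3 S100 genes each lost its pooled call without at least 1 of control 1, cKO 1 and cKO 2, at adjusted p of up to 0.186.

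**Figure D4:**
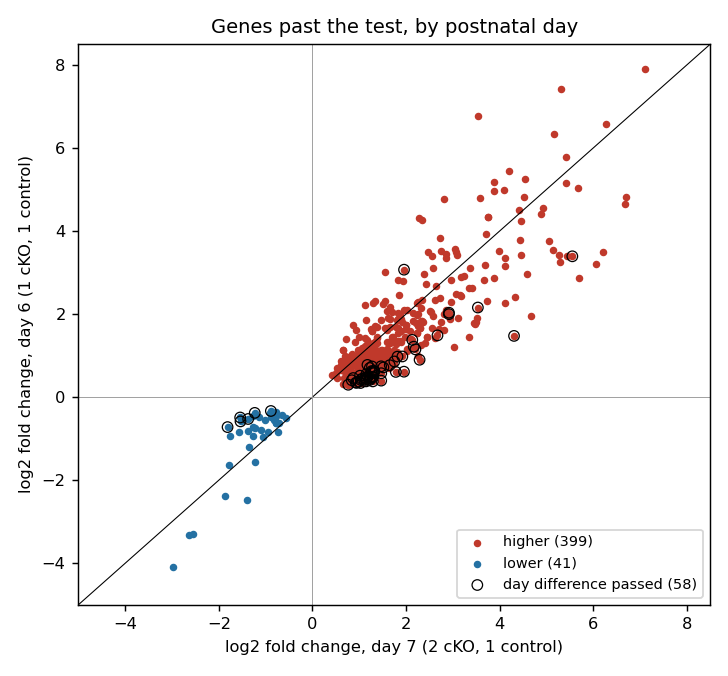
Log2 fold change within day 7 (horizontal axis, 2 cKO and 1 control library) against that within day 6 (vertical axis, 1 and 1) for the 399 increases (red) and 41 decreases (blue). All lie in the quadrants of equal sign, which the lack of overlap between their groups fixed in advance. Circles mark those whose difference between days passed the test.

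The change in OPCs was set against that in iOLs of the same genotypes. The fold changes of each stage come from its own libraries. The spread of each gene was estimated over all 9 libraries for both, so the calls of the stages are not independent. Of the 399 increases, 228 were also called in iOLs, 223 of them upward, and of the 41 decreases 20 were, 17 of them downward, beside 10.6% of all genes tested that were called in iOLs in either direction. The difference between the stages passed in 39 of the 399 (9.77%) and 3 of the 41 (7.32%), against 1.83% of all genes, or 248. All iOL libraries came from day 6, so stage and postnatal day are in part mixed. A gene called in OPCs had its OPC difference selected upward, so a gap to iOLs is favoured by that choice. Among the 39, 13 had a smaller change in the same direction in iOLs, 22 had the opposite sign there and 4 had a larger change. The p53 targets Cdkn1a, Eda2r and Ccng1 had log2 fold changes of 2.65, 2.64 and 1.17 in OPCs and 0.68, 0.77 and 0.08 in iOLs. Col9a1 had 1.88 and −0.38, C1qtnf1 4.21 and 0.68, and Clcf1 2.73 and −0.36. Tle2 had 0.88 in OPCs and −1.28 in iOLs, a difference of 2.17 ± 0.18 (edgeR adjusted p = 0.00644). Hlx had 4.61 and 2.09, Gad2 2.55 and 1.0, Moxd1 2.07 and 1.21, Ephb1 0.69 and −0.30, and Sez6l 0.57 and −0.78.

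Asb4 was among the 4 increases with a larger change in iOLs, at 1.19 in OPCs and 2.80 in iOLs. The 3 decreases were Gadd45g, Nectin1, a cell-adhesion protein, and Hrh1, a histamine receptor, which had −1.01, −0.68 and −0.73 in OPCs and 0.89, 1.07 and 0.92 in iOLs. Cdkn2a, at 6.04 and 7.68, and Foxf1, at 7.48 and 5.77, did not pass the test of a stage difference. Of the 42 stage differences, 7 held without each OPC library, among them those of Tle2, Col9a1, C1qtnf1 and Nectin1. Without cKO 1, 8 of the 42 held, without cKO 2, 7, without control 1, 34, and without control 2 or cKO 3, all 42. The calls in OPCs of Clcf1, Sez6l, Asb4, Gadd45g, Nectin1 and Hrh1 were each lost without at least 1 of control 1, cKO 1 and cKO 2, at adjusted p from 0.0517 to 0.204.

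**Figure D5:**
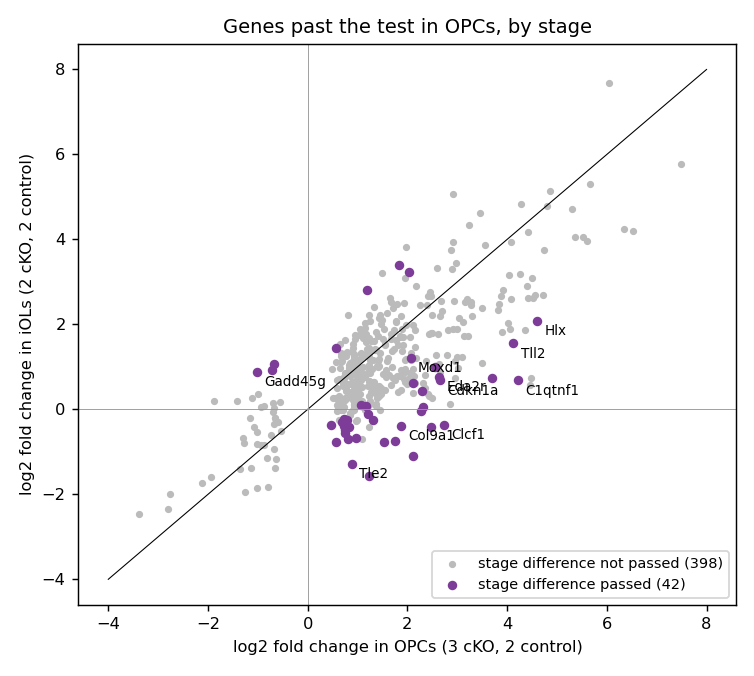
Log2 fold change in OPCs (horizontal axis) against that in iOLs (vertical axis) for the 440 genes called in OPCs. Purple marks the 42 whose difference between the stages passed the test, 22 of the 39 increases among them lying below the horizontal zero line.

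Some increased genes were neighbours in the genome. Of 793 neighbour positions beside an increased gene, 50 (6.31%) held another increased gene, against 2.94% of all positions, and where gene spans do not overlap the shares were 5.65% and 3.04%. This gave 25 pairs, which are described without a test. On chromosome 17, the noncoding Trp53cor1, Cdkn1a and Cpne5 lay in a row, 11.9 kb and 55.8 kb apart, with log2 fold changes of 2.63, 2.65 and 1.68. On chromosome 3, She and Il6ra, 10.5 kb apart, had 5.30 and 3.0. On chromosome 4, Trabd2b and Foxd2, 291 kb apart, had 3.88 and 4.53. H19 and Igf2 lay 72.6 kb apart on chromosome 7, with 3.10 and 4.43, and Igf2os, antisense to Igf2, may share its reads. Foxa1 and Ttc6 overlap, with 4.04 and 2.02. No increased gene neighboured a decreased gene, and the 2 pairs of decreased neighbours, Lims2 with Gpr17 and S100a1 with S100a13, overlap. Trp53cor1, Cpne5, Ttc6, Il6ra, Foxd2, Igf2 and Igf2os each lost its call without at least 1 of control 1, cKO 1 and cKO 2, at adjusted p from 0.054 to 0.144.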

How the data were processed

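RNA was sequenced in 9 libraries, of which the 5 of OPCs carry the comparison. The authors deposited unnormalized read counts for each gene in 1 table. Per the submitters' processing notes, the tools were cutadapt 1.14, STAR 2.6.0 and featureCounts of Subread 1.6.2, with mm10. Per the labels' protocols, RNA above 100 ng went into a stranded polyA kit and less RNA into an amplifying kit. The sources do not tie libraries to kits, so antisense, overlapping and near-identical genes are uncertain. Every gene has at least 1 count in each library and 10 or more in at least 4, and no gene outside the table could be studied. The repeated header row was removed. Of the symbols, 99.8% matched RefSeq on GRCm38.p6.

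All 9 libraries were fitted by edgeR 4.0.16 on limma 3.58.1 under R 4.3.3, as 4 group means with TMM factors and the quasi-likelihood test, with 5 residual degrees of freedom, a common dispersion of 0.0265 and Benjamini-Hochberg adjustment over 13549 genes at 0.05. The filter at 10 counts removed 0 genes. Fits within days used 6 means and 3 residual degrees of freedom. Standard errors divide the absolute log2 fold change by the root of F. Intervals of count ratios are exact 95% binomial intervals and cover counting error only. On simulated data with 200 of 13549 genes changed, tested for the OPC comparison, 66.2% of 2-fold and 95.6% of 4-fold changes were found. The mean false share was 5.78%. The simulated libraries had no day effect and no library that stood apart. They gave 0.2 day differences on average, against 2762 in the data, so these shares need not hold for the real libraries.

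Same-numbered OPC libraries did not deviate together in both pairs (r = 0.313 for number 1 and −0.352 for number 2). Libraries of the same day did (0.313, 0.352 and 0.43). With 2 controls centred on their mean, the deviations of control 2 mirror those of control 1. cKO 1 and 2 were also alike, so these signs were largely fixed in advance and do not decide between pairing and day. cKO 1 and 2 differed by more than sampling noise (chi-square per degree of freedom 7.67, against 47.3 and 47.4 with cKO 3), and were kept as 2 libraries.

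The members and gene lists were chosen with earlier results of these data known. Named are the core PRC2 genes, increases ranked 11 to 25 and decreases ranked 10 to 20 by fold (earlier ranks where a result turns on them), the 8 called genes each way with the highest level, the 8 with the smallest p, up to 4 called members of each of 42 lists, and the 6 with the widest gap between days. Those named by fold had 5 CPM or more in the higher group. Some genes were added after their values were seen: Mdm2, Ccng1, Olig1, Olig2, Sox10, Pdgfra, Cspg4, Hrh1, Nectin1, Meis2, the further called members of lists of 12 or fewer calls, the genes of the neighbour pairs, and Lars2 and Mir6236. Some genes that the rule names are not reported here. Alternatives were RLE size factors, other filters, DESeq2 1.42.0, replicate number or day as a term, only the OPC libraries, each day alone, and leaving out each library.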

Additional observations from a re-analysis of the deposited data

Results flagged for a closer look

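The change with Eed cKO differed between OPCs and iOLs, by edgeR's test of the difference adjusted over all genes, in 248 genes, and between day 7 and day 6 OPCs in 2762. Among the genes named above, the OPC change exceeded the iOL change on the log2 scale by 3.53 in C1qtnf1, 3.09 in Clcf1, 2.57 in Tll2, 2.52 in Hlx, 2.26 in Col9a1 and 2.17 in Tle2. The gap was 1.96 in Cdkn1a, 1.86 in Eda2r and 1.09 in Ccng1, 1.55 in Gad2, 1.49 in Piezo2, 1.34 in Sez6l, 0.99 in Ephb1 and 0.86 in Moxd1. It was negative in Gadd45g (−1.9), Nectin1 (−1.75), Hrh1 (−1.64) and Asb4 (−1.61).

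The day 7 change exceeded the day 6 change by 2.83 in Ebf2, 2.16 in Plag1, 0.94 in Scube1, 0.92 in Zfhx4, 0.88 in both Zdbf2 and Trp53inp1, 0.81 in Zfp704, 0.76 in Cacna2d1, 0.72 in Peg3 and 0.7 in Insr. Smaller gaps were 0.69 in Cntn1, 0.58 in Igf1r, 0.5 in Auts2, 0.43 in Farp1 and 0.4 in Bmi1. The gap was negative in Slc32a1 (−1.11), S100a13 (−1.09), S100a1 (−0.95) and S100a16 (−0.85). Each day's difference rests on 1 control library, and what is particular to that library cannot be told apart from the day. No group had 4 or more libraries, so single libraries were not tested against their group.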

How the results depend on the processing

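The counts of 399 higher, 41 lower and 248 stage-different genes stayed within 1.5 times with RLE size factors (408, 37 and 231), no filter (399, 41 and 248) and at least 1 CPM in 4 libraries (397, 38 and 260), and the 2762 day differences became 2808 and 2779. DESeq2 called 767, 239 and 823. Postnatal day as a term gave 848, 534 and 1202. The replicate block gave 1223, 718 and 1049. Number 2 had a correlation of −0.352, but with 2 controls whether same-numbered libraries pair could not be decided. Only the 5 OPC libraries gave 184 higher and 6 lower, within day 7 the counts were 3386 and 3386, and within day 6 they were 251 and 32. Without 1 library, the counts ran from 161 to 1862 higher, from 3 to 2073 lower and from 26 to 2156 stage-different, and a left-out control leaves a lone one that is assumed to vary like the other groups. The cause of these shifts was not tested. Of the 399 and 41 genes, 399 and 41 stayed called with the day term, 398 and 36 with the block, 398 and 40 with DESeq2, and 179 and 5 with only the OPC libraries.

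Of the 133 named and called genes, 68 were called without each library, and none of them turned direction in any alternative. Direction turned in genes that were not called: Suz12 (−0.04), Ezh1 (−0.19), Pdgfra (−0.21) and Cspg4 (−0.01) within day 6, Ezh2 within day 7 (−0.15) and without control 2 (−0.12), and Sox10 (0.01) and Pdgfra (−0.14) without control 1. Without 1 library, Ezh2 ran from −0.12 to 0.21, Sox10 from −0.26 to 0.01 and Pdgfra from −0.14 to 0.29. Scaling moved the median over all genes from −0.023 to −0.005 with RLE or DESeq2. The alternative for promoter features was not run, since too few increased genes had a record. Depth limits genes with few control counts, where the interval of the count ratio is the wider guide.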
